A study of Drosophila melanogaster with 8 samples.

Results

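The genes described here are 10 Drosophila heat shock proteins and heat shock cognates: Hsc70-1, Hsc70-2, Hsc70-3, Hsc70-4, Hsc70-5, Hsp68, Hsp83, Hsp23, Hsp26 and Hsp27. They were chosen by gene name, after earlier results of these data were known, and are 10 of the 13989 gene entries in the expression tables of a study of pupal central nervous system (CNS). RNA was sequenced from 4 groups of 2 biological replicates, each replicate a pool of about 10 CNS. Wild type animals (WT, Canton S) were sampled at 36 h and at 72 h after puparium formation (APF). The knockdown animals (KD) had the genotype ElavC155GAL4; dStimRNAi/tubulinGAL80ts, in which the pan-neuronal elav driver expresses RNA interference against dStim, the gene of the endoplasmic reticulum (ER) calcium sensor. In these animals a temperature-sensitive GAL80, expressed from the tubulin promoter, keeps the driver silent at low temperature, and a shift to 29 °C for 24 h, ending at 36 h APF, releases it. KD animals were sampled at 36 h, at the end of the shift, and at 72 h after 36 h of recovery. The rearing temperature in the labels is 25 °C.

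The wild type carried none of these transgenes, so the transgenes, the genetic background and the knockdown cannot be told apart in any comparison below. The labels do not state separately which temperature course the wild type pupae followed, a point that matters for heat-inducible genes. The driver acts in neurons, while the sequenced tissue was the whole CNS with its glia and any attached tissue. In such bulk samples fewer cells of a type and less RNA per cell cannot be told apart.

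Heat shock proteins are chaperones, which hold or refold unfolded proteins. Hsp70 proteins bind short exposed stretches of a polypeptide in an ATP-driven cycle, Hsp90 acts later on folded clients such as kinases and hormone receptors, and small heat shock proteins hold unfolding proteins without ATP until Hsp70 takes over. Some members are made at all times and are called cognates (Hsc), while others are switched on by heat shock factor (Hsf) after stress, and in Drosophila the small heat shock genes clustered in band 67B are also switched on in development by the steroid hormone ecdysone.

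All levels are in FPKM, the number of sequenced fragments divided by transcript length and by library size, and each is a single value per gene and group that the authors' CuffDiff run pooled over both replicates. Neither the spread between replicates nor the sequencing depth can be recovered from these values. For that reason no ratio below has an error or a test, and a gene is called higher or lower by size alone, at a difference of at least 2-fold with a mean of at least 1 FPKM in the 2 groups compared and a value above 0 in both. Under this filter a gene listed at 0 in a group has no ratio and is left out of the counts, however high it is in the other group. Between 8972 and 9557 genes reached 1 FPKM in a group, and the FPKM summed to between 617894 and 635372. The knocked-down gene itself, listed as Stim, stood at 42.2 FPKM in WT and 33.9 in KD at 36 h, and at 38.6 and 31.3 at 72 h, a log2 ratio of -0.32 and -0.31. All 5 neuronal markers (elav, nSyb, brp, Syt1 and cac) and all 5 glial markers were above 1 FPKM in every group.

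The 10 genes covered more than 3 orders of magnitude. In WT at 36 h Hsp23, a small heat shock protein, led with 3044 FPKM and was the 7th most abundant entry of the whole table. It was followed by Hsc70-4 with 1167, Hsp26 with 1158, Hsp27 with 1003, Hsp83 with 888 and Hsc70-3 with 593 FPKM. With no spread known, the order of close neighbours such as Hsc70-4 and Hsp26 cannot be told. Hsc70-5 with 116, Hsc70-2 with 43.6 and Hsp68 with 27.5 FPKM formed the lower range, and Hsc70-1 stood at 0.701 FPKM. Together the members held 1.27% of all FPKM in WT and 1.26% in KD at 36 h. At 72 h their share was 0.254% in WT and 0.287% in KD. The 3 small heat shock genes made up 64.7% of the members' FPKM in WT at 36 h and 9.77% at 72 h, so that the 72 h members were mainly Hsp70 family RNA (57.3%) and Hsp83 (33.0%).

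**Figure D1:**
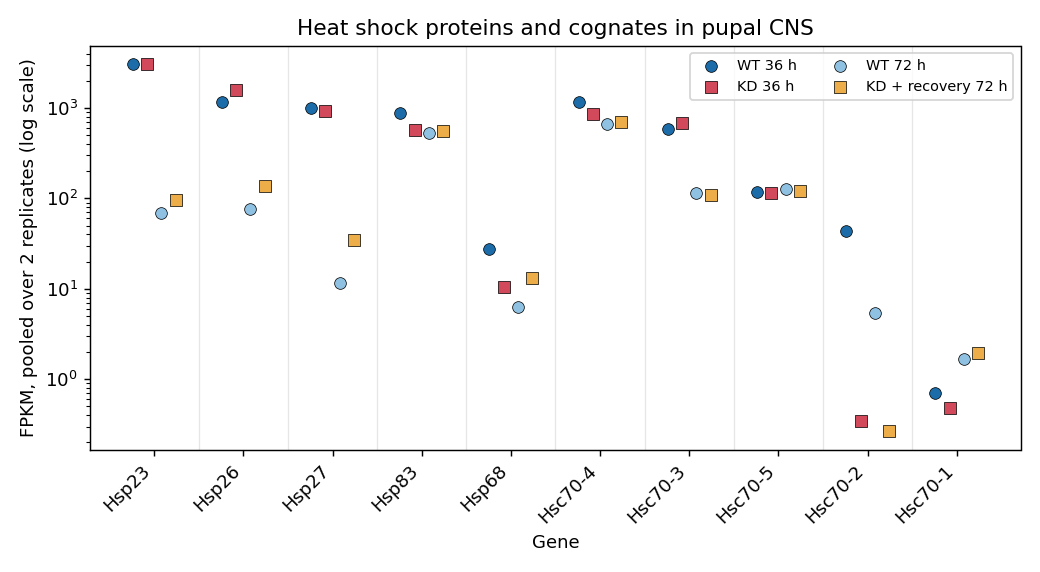
Pooled FPKM on a log axis for each of the 10 genes in the 4 groups, 1 point per gene and group with no error bar because the values are already pooled over 2 replicates. The 3 small heat shock genes at the left lie near 1000 FPKM or above at 36 h and at 138 or below at 72 h in both genotypes, while Hsc70-2 is the member whose KD squares lie far below both WT circles.

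Which of these genes differed between KD and WT directly after the knockdown was read at 36 h. Of the 9 members that passed the filter, 0 were at least 2-fold higher and 2, Hsc70-2 and Hsp68, were at least 2-fold lower. Over all 9258 genes that passed, 2.11% were that much higher and 3.02% that much lower. The members' median log2 ratio was -0.13, beside 0.00 over all genes, and the central 90% of all genes lay between -0.66 and 0.60.

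Hsc70-2, an Hsp70 cognate gene (FBgn0001217, chromosome arm 3R, 8870481 to 8873112 in build dm3), had the widest gap of the members. Its level was 43.6 FPKM in WT and 0.342 in KD at 36 h, and 5.45 in WT and 0.266 in KD at 72 h. Both KD values were thus below 1 FPKM, at ranks 10287 and 10146 of the 13989 entries, whereas WT stood at ranks 2777 and 7226. The level in KD was 127-fold lower at 36 h and 20.5-fold lower at 72 h. With 1 FPKM added to both values, which damps ratios of low levels, the log2 ratios were -5.05 and -2.35 in place of -6.99 and -4.36.

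Hsp68, a heat-inducible member of the Hsp70 family (FBgn0001230, 3R, 19880140 to 19883029), stood at 27.5 FPKM in WT and 10.5 in KD at 36 h. It was 2.63-fold lower in KD at that age (log2 ratio -1.39). Its listed locus is shared with CG6000, whose annotated transcript overlaps that of Hsp68 by 13 bases in the Ensembl annotation. CG6000 stood at 38.9 FPKM in WT and 38.7 in KD at 36 h, so the gap in Hsp68 had no counterpart in the overlapping gene. Of the 11 other genes listed within 20 kb of Hsp68, CG6000 included, 10 passed the filter at each age and 0 differed by 2-fold.

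Of the remaining members at 36 h, the abundant Hsp83 and Hsc70-4 had lower values in KD without reaching 2-fold. Hsp83, the Drosophila Hsp90 (FBgn0001233, 3L, 3193027 to 3197061), stood at 888 FPKM in WT and 576 in KD, 1.54-fold lower. Hsc70-4, the main cytosolic Hsp70 cognate, which also strips clathrin from vesicles at synapses (FBgn0266599, 3R, 11068370 to 11072336), stood at 1167 and 859 FPKM, a log2 ratio of -0.44. Hsc70-1 (FBgn0001216, 3L, 13967277 to 13970879) was below the filter with 0.701 FPKM in WT and 0.482 in KD.

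The members that act in organelles and the 3 small heat shock members were within 2-fold of WT at 36 h. Hsc70-3 is BiP, the Hsp70 of the ER lumen, the compartment whose calcium dSTIM senses (FBgn0001218, X, 11695729 to 11701212). It stood at 593 FPKM in WT and 688 in KD, a log2 ratio of 0.21. Hsc70-5 is the mitochondrial Hsp70 (FBgn0001220), and its values were 116 FPKM in WT and 114 in KD. Hsp23 (FBgn0001224) stood at 3044 and 3038 FPKM, the closest pair of the 10 genes. Hsp27 (FBgn0001226) stood at 1003 and 918 FPKM. Hsp26 (FBgn0001225) had the largest positive log2 ratio of the members at this age, 0.45, with 1158 FPKM in WT and 1585 in KD, still within 2-fold.

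At 72 h the KD animals had spent 36 h away from the knockdown temperature. All 10 members passed the filter, of which 2, Hsp27 and Hsp68, were at least 2-fold higher and 1, Hsc70-2, was at least 2-fold lower. Over all 9204 genes 2.02% were that much higher and 5.18% that much lower. The members' median log2 ratio was 0.14, beside -0.01 over all genes, and the central 90% of genes lay between -1.03 and 0.71.

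The 3 small heat shock members all had higher values in KD at 72 h. Hsp27 stood at 11.6 FPKM in WT and 34.4 in KD, 2.98-fold higher (log2 ratio 1.58). Hsp26 stood at 76.9 and 138 FPKM, a log2 ratio of 0.85 that is above the 95th percentile of all genes but short of 2-fold. Hsp23 stood at 69.0 and 95.1 FPKM, a log2 ratio of 0.46. All 6 of these values are far below those of the same genes at 36 h. The direction was not shared by the other genes of the 67B cluster that passed the filter at 72 h. Hsp22, Hsp67Ba and Hsp67Bc had lower values in KD, with log2 ratios of -0.13, -0.29 and -0.47. These were smaller in size after the centring on transcript length described below.

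Hsp68 at 72 h was higher in KD, at 13.2 FPKM against 6.29 in WT (2.10-fold, log2 ratio 1.07), the opposite direction from 36 h. This call is marginal, since the log2 ratio was 0.96 with 1 FPKM added to both values and 0.93 when the groups were scaled to a common upper quartile. CG6000 at the same locus stood at 13.9 FPKM in WT and 12.2 in KD at 72 h. Apart from Hsc70-2, the cognates and Hsp83 had similar values in both genotypes at this age. Hsc70-4 stood at 667 FPKM in WT and 701 in KD, Hsp83 at 532 and 560, Hsc70-3 at 116 and 110, and Hsc70-5 at 127 and 120. Hsc70-1 reached 1.69 FPKM in WT and 1.94 in KD. All 5 of these log2 ratios lay between -0.08 and 0.20.

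**Figure D2:**
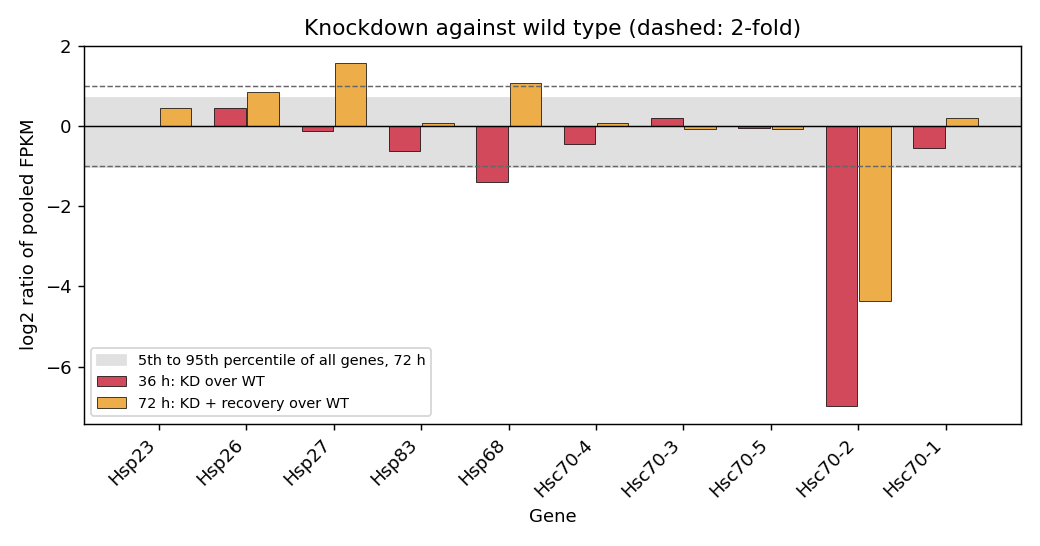
Bars give the log2 ratio of pooled FPKM, KD over WT, for each member at 36 h and at 72 h with recovery, with no error bars. Dashed lines mark 2-fold and the grey band spans the 5th to 95th percentile of all genes at 72 h (-1.03 to 0.71). Hsc70-2 is far below the band at both ages, Hsp68 is on opposite sides of 0, and Hsp27, Hsp68 and Hsp26 lie above the band at 72 h.

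Of the marker lists of other tissues, that of muscle moved most beside these results. The fat body list had 0 of 5 past 2-fold in KD at either age. The hemocyte and trachea lists had 0 past 2-fold among the genes that passed. Of 4 germline markers, 0 passed at 36 h and 1 at 72 h, which was at least 2-fold higher in KD. Of 6 muscle markers, 5 passed the filter at 36 h and 4 of them were at least 2-fold lower in KD (median log2 ratio -1.30), among them Mhc, muscle myosin heavy chain, at 15.1 FPKM in WT and 5.91 in KD. The summed FPKM of the muscle list was 131 in WT and 61.3 in KD at 36 h, and 937 and 753 at 72 h. At 72 h 1 of the 6, the flight muscle actin gene Act88F, was at least 2-fold higher in KD and 0 were at least 2-fold lower. The list's median log2 ratio at that age was -0.33. Act57B (-0.94), up (-0.84), wupA (-0.58) and Mlc2 (-0.07) were lower and Mhc (0.29) higher, all within 2-fold. The muscle list thus had lower values in KD at 36 h together with Hsp68 and Hsc70-2. Its part in these results was not tested. The 5 neuronal markers were 0 of 5 past 2-fold at either age, but at 72 h their log2 ratios were all positive, from 0.43 to 0.78. For the 4 of them with a known transcript length, all long, the ratios measured from the median of genes of similar length were 0.07 to 0.28, by the centring described next. The glial list summed to 671 and 608 FPKM at 36 h and to 4639 and 5033 at 72 h, with 0 of 5 past 2-fold in KD at either age.

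At 72 h the ratio of KD to WT also moved with transcript length over all genes. When the genes were split into 10 bins by the length of their longest transcript in the Ensembl annotation, the median log2 ratio went from -0.27 in the shortest bin to 0.42 in the longest. Genes with a single exon had a median of -0.20 (804 genes), against 0.00 for genes with several (8192 genes). Hsp23, Hsp26, Hsp27 and Hsp68 all have a single exon. Hsp23 (884 nt) and Hsp26 (1010 nt) are among the shorter transcripts, so their positive ratios at 72 h run opposite to the all-gene trend. Measured from the median of genes of similar length, the log2 ratio of Hsp27 was 1.69 and that of Hsp26 was 1.11, which passes 2-fold. That of Hsp23 was 0.72. For the cluster genes Hsp22, Hsp67Ba and Hsp67Bc the centred ratios were -0.06, -0.20 and -0.21. This centring was chosen after the data had been seen.

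**Figure D3:**
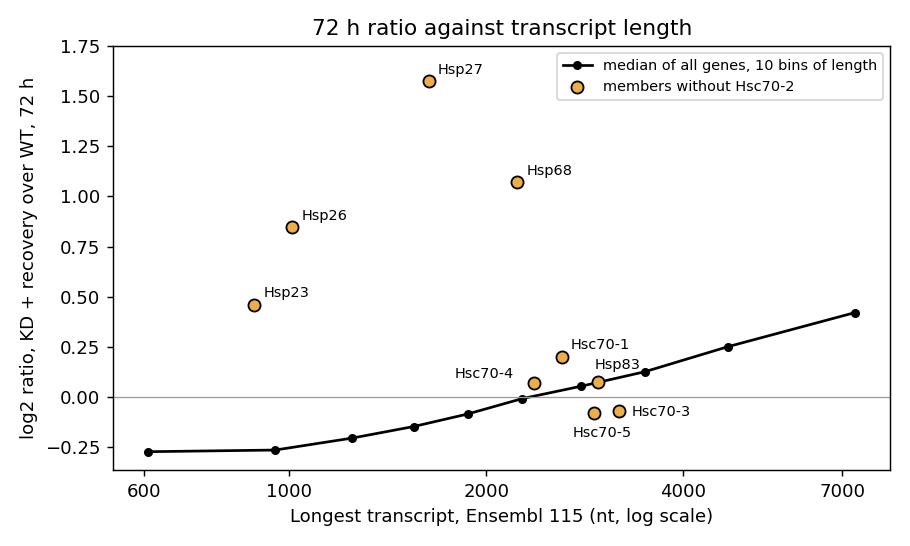
Log2 ratio of KD with recovery over WT at 72 h against the longest annotated transcript in nt on a log axis, for 9 members (points, Hsc70-2 left out at -4.36) and for the median of all genes in 10 bins of length (line). The line climbs from -0.27 to 0.42, and Hsp23, Hsp26, Hsp27 and Hsp68 lie above it while the other members lie near it.

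The low value of Hsc70-2 in KD was shared by some of the genes around it. Of the 11 other genes listed within 20 kb, 7 passed the filter at 36 h and 2 of these were at least 2-fold lower. CG31157, which was listed at 0 in KD, is not among the 7. At 72 h 9 passed and 4 were at least 2-fold lower, and 0 were higher at either age. The next gene downstream, CG31157, starts 121 bases after the end of Hsc70-2 and has the same strand. It stood at 28.9 FPKM in WT at 36 h and was listed at 0 in KD, and it stood at 3.09 in WT and 0.0776 in KD at 72 h. The pattern of CG31157 over the 4 groups is thus the nearest to that of Hsc70-2 in this window. Between such adjacent genes on the same strand, reads can be assigned to either, so the values of the pair may not be independent.

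Other neighbours had smaller gaps. CG7966, on the opposite strand, stood at 21.4 FPKM in WT and 8.28 in KD at 36 h and at 17.8 and 5.81 at 72 h (log2 ratios -1.37 and -1.61). The gene ry encodes xanthine dehydrogenase, the enzyme of the rosy eye colour, and stood at 6.80 and 1.27 FPKM at 36 h and at 7.44 and 3.57 at 72 h (log2 ratios -2.42 and -1.06). CG11668 was below the filter at 36 h and stood at 5.57 FPKM in WT and 0.788 in KD at 72 h. Its listed locus, which ends 357 bases before Hsc70-2, is shared with CG11670 and snk, so its value is uncertain. In the same window the transcriptional corepressor gene CtBP had 101 and 103 FPKM at 36 h, and the midline regulator gene sim had 5.08 and 5.37. CG12360, with 38.5 and 43.3 FPKM, pic, a DNA damage binding protein gene, with 32.8 and 26.2, and l(3)87Df, with 37.8 and 22.7, were also within 2-fold at 36 h. The genes snk and CG11670 stayed at or under 0.416 FPKM in all groups. The lower values in KD therefore lay mainly in the stretch from ry to CG7966, with genes within 2-fold on both sides. The edge was not sharp, since l(3)87Df, beside ry, was also lower in KD at both ages (log2 ratios -0.74 and -0.87). The knockdown and wild type animals differ in genetic background as well as in dStim, and these cannot be told apart for this stretch.

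**Figure D4:**
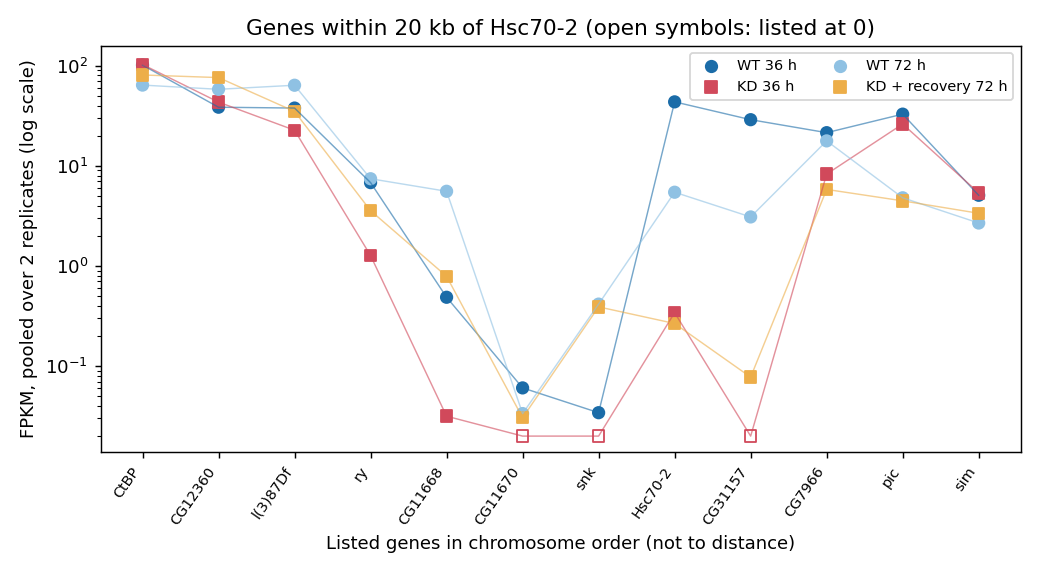
Pooled FPKM on a log axis for Hsc70-2 and the 11 other genes listed within 20 kb, in chromosome order, for the 4 groups, with open symbols at the axis floor for values listed at 0. The KD squares separate from the WT circles at ry, CG11668, Hsc70-2, CG31157 and CG7966, and lie close to them at CtBP, CG12360, pic and sim. At l(3)87Df they lie below the WT circles by less than 2-fold.

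How the members changed from 36 h to 72 h was read within each genotype. The tables of the 2 ages were normalized separately, and the median over all genes was -0.39 on the log2 scale in WT and -0.40 in KD, so each age ratio should be read against that shift. In WT 1 of 10 members was at least 2-fold higher at 72 h and 6 were at least 2-fold lower. Over all 9560 genes 14.5% were higher and 25.5% lower. In KD 1 of 9 members was higher and 4 were lower, beside 14.6% and 28.3% of 9312 genes. The members' median log2 ratio was -2.24 in WT and -0.29 in KD. The WT and KD medians are not over the same genes, since Hsc70-2 was below the filter in KD. The KD median depends on the filter, and with a mean of at least 10 FPKM it was -1.47, beside -2.36 in WT.

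The small heat shock genes had the largest drops with age. Hsp27 went from 1003 to 11.6 FPKM in WT, 86.8-fold lower, and from 918 to 34.4 in KD, 26.7-fold lower. Hsp23 went from 3044 to 69.0 FPKM in WT (44.1-fold lower) and from 3038 to 95.1 in KD (32.0-fold lower), and its rank in the table from 7 to 1555 and from 8 to 1200. Hsp26 went from 1158 to 76.9 FPKM in WT (15.1-fold lower) and from 1585 to 138 in KD (11.4-fold lower). All 3 were several times further down than the shift of all genes in both genotypes. Scaling both ages to a common median left the log2 ratios at -5.08 for Hsp23, -3.53 for Hsp26 and -6.05 for Hsp27 in WT.

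These 3 genes lie on chromosome arm 3L in the 67B cluster, Hsp26 at 9369518 to 9370527, Hsp23 at 9374984 to 9375867 and Hsp27 at 9377165 to 9378384 (dm3). The cluster holds further small heat shock genes that are not members. Hsp22, whose protein is mitochondrial, went from 504 to 23.2 FPKM in WT and from 442 to 21.2 in KD. Hsp67Ba went from 592 to 23.3 in WT and from 686 to 19.0 in KD, and Hsp67Bc from 2226 to 789 and from 1949 to 568. The low-level genes of the cluster were Hsp67Bb, listed at the same locus as Hsp22 and therefore uncertain, and CG4461. Hsp67Bb went from 1.65 to 1.16 FPKM in WT and from 9.96 to 0.132 in KD, and CG4461 from 1.04 to 0.123 and from 0.324 to 0.0609. Of these 8 cluster genes 7 passed the filter in each genotype, CG4461 being below it, and 6 were at least 2-fold lower at 72 h in WT and 7 in KD, with Hsp67Bb the exception in WT. The median log2 ratio was -4.44 in WT and -4.74 in KD. The summed FPKM of the 8 was 8530 in WT and 8629 in KD at 36 h, and 994 and 877 at 72 h. Between genotypes 1 of 7 that passed at 36 h was at least 2-fold higher in KD, Hsp67Bb, and 1 of 6 at 72 h, Hsp27. The neighbour CG4080, 2224 bases beyond Hsp27, went from 28.8 to 15.5 FPKM in WT, and eIF-4E, a translation initiation factor gene, from 408 to 296, so the large drop ended at Hsp27 on that side.

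**Figure D5:**
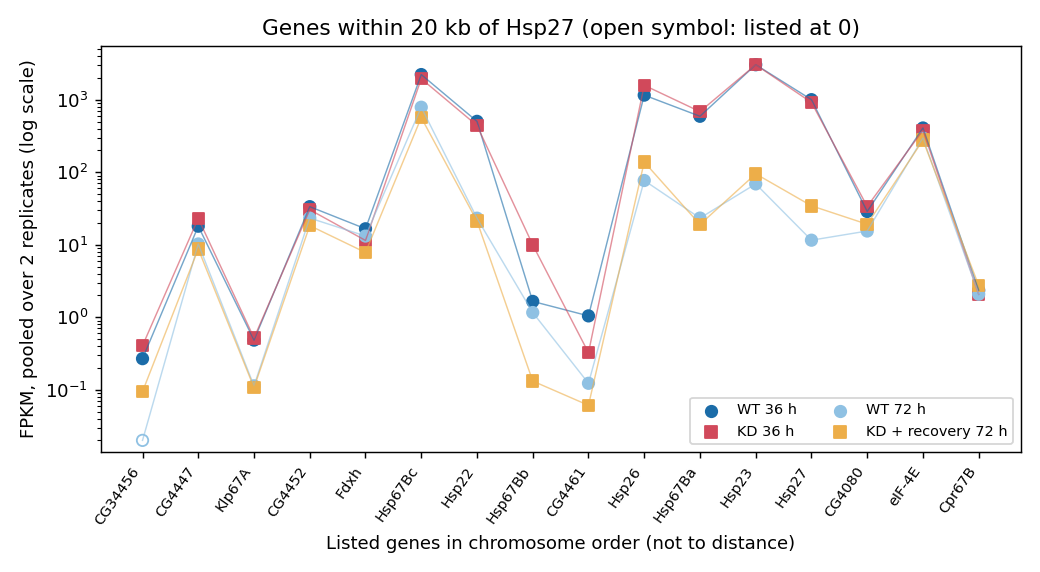
Pooled FPKM on a log axis for the genes listed within 20 kb of Hsp27, in chromosome order, for the 4 groups, with an open symbol at the axis floor for a value listed at 0. At Hsp22, Hsp26, Hsp67Ba, Hsp23 and Hsp27 both 72 h groups lie far below both 36 h groups, while eIF-4E, CG4452 and Cpr67B stay within 2-fold.

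Among the Hsp70 family, Hsc70-3 had the largest drop with age that was seen in both genotypes, from 593 to 116 FPKM in WT (5.13-fold lower) and from 688 to 110 in KD (6.24-fold lower). Hsc70-2 went from 43.6 to 5.45 FPKM in WT, 7.99-fold lower. Hsp68 went from 27.5 to 6.29 in WT, 4.37-fold lower, while in KD it went from 10.5 to 13.2, a log2 ratio of 0.34. Hsp68 was therefore at least 2-fold lower with age in WT alone, and whether the genotypes differ in this could not be tested. Hsc70-1 was the member at least 2-fold higher at 72 h, from 0.701 to 1.69 FPKM in WT and from 0.482 to 1.94 in KD. These levels are close to the 1 FPKM filter, and with 1 FPKM added the log2 ratios were 0.66 and 0.99, both short of 2-fold.

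Hsc70-4, Hsp83 and Hsc70-5 differed by less than 2-fold between the ages in both genotypes. Hsc70-4 went from 1167 to 667 FPKM in WT (log2 ratio -0.81) and from 859 to 701 in KD (-0.29), and it was the most abundant member in both groups at 72 h. Hsp83 went from 888 to 532 in WT (-0.74) and from 576 to 560 in KD (-0.04). Hsc70-5 stood at 116 and 127 FPKM in WT and at 114 and 120 in KD, which makes it the member with the narrowest range over the 4 groups. Scaled to a common median, the WT log2 ratios were -0.42 for Hsc70-4, -0.35 for Hsp83 and 0.51 for Hsc70-5, and the KD ratio of Hsc70-4 changed sign to 0.06 and that of Hsp83 to 0.31.

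The strictly heat-inducible Hsp70 genes had low FPKM in every group. The copies Hsp70Aa, Hsp70Ab, Hsp70Ba, Hsp70Bbb and Hsp70Bc are nearly identical, so reads can be split among them or lost, and their values are uncertain. The highest of them in FPKM, Hsp70Bc, stood at 0.951 FPKM in WT and 0.883 in KD at 36 h, and at 1.85 and 2.61 at 72 h. Hsp70Ba stood at 0.0156 and 0.394 FPKM at 36 h, and was listed at 0 in WT and at 1.36 in KD at 72 h. Hsp70Bbb stayed between 0.116 and 0.719 FPKM, and the listed entries that hold Hsp70Ab stayed at or under 0.0235. The sum over all these entries was 1.14 FPKM in WT and 1.42 in KD at 36 h, and 2.02 and 4.69 at 72 h. These low values do not show that the genes were silent. In average log2 CPM, the authors' read counts scaled to library size alone, Hsp70Bbb stood at 5.37 in the 36 h table. Hsp68 stood at 5.30 and Hsc70-2 at 5.41, with far higher FPKM in WT. Hsp70Ab stood at 1.46 and Hsp70Bc at 1.10. Which samples this average covers is unclear, so it gives no comparison between groups, and the cause of the mismatch was not tested. Hsf, the transcription factor of the heat shock response, stood at 48.4 and 49.4 FPKM at 36 h and at 34.7 and 37.7 at 72 h, all within 2-fold. Hsromega, a heat-inducible noncoding RNA gene, stood at 748 FPKM in WT and 484 in KD at 36 h and at 182 and 170 at 72 h. Its log2 ratio at 36 h of -0.63 was close to that of Hsp83.

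Beyond the members, 61 other chaperone and stress genes had been listed by function, and 59 of these were found in the tables. At 36 h 49 passed the filter, 1 was at least 2-fold higher and 1 lower in KD. At 72 h 51 passed, 0 were higher and 1 was lower. Each of these shares is about the background or under it. The gene higher at 36 h was Hsp67Bb, at 1.65 FPKM in WT and 9.96 in KD (log2 ratio 2.59). Hsp67Bb is listed at the same locus as Hsp22, whose level is far higher, so the division of reads between both makes this value uncertain. The gene lower at 36 h was l(2)efl, a small heat shock gene of the alpha-crystallin kind, at 18.1 FPKM in WT and 4.85 in KD (-1.90), and at 34.3 and 20.7 at 72 h (-0.73). The gene lower at 72 h was Hsp60C, a mitochondrial chaperonin gene, at 7.26 FPKM in WT and 0.280 in KD (-4.70). Its paralogs Hsp60B and Hsp60D stood at 2.15 and 1.32 FPKM in WT at 72 h, and in KD Hsp60B was listed at 0 and Hsp60D at 0.245. The main Hsp60 gene stood at 267 and 220 FPKM, so the low values in KD were those of the minor copies.

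The remaining small heat shock genes, outside the cluster, were CG7409, at 4.46 and 8.11 at 72 h, HspB8, at 86.6 and 99.6 at 36 h, and CG13133, which stayed between 0.371 and 2.03 FPKM. Functional partners of the members and genes of ER folding and stress moved little with the knockdown. Of 11 genes of ER folding and stress, 0 differed by 2-fold at either age, with a median log2 ratio of 0.09 at 36 h and 0.12 at 72 h. Of 10 Hsp70 cochaperones 0 differed at either age. The largest ratio among them was that of stv, a BAG-family partner of Hsp70, at 29.3 FPKM in WT and 56.4 in KD at 72 h (log2 ratio 0.94). DnaJ-1, a J-domain partner of Hsp70, stood at 91.1 and 128 FPKM at that age. Of 6 Hsp90 cochaperones found in the tables, none (0) differed at either age. Their median at 72 h was -0.35, while Hsp83 itself was at 0.08. Measured from the median of genes of similar length, those with a known length ran from -0.41 to 0.06, and Hsp83 was at -0.01.

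With age the same lists moved more. Of 53 of these genes that passed in WT, 6 were at least 2-fold higher and 26 lower, and in KD the counts were 6 and 26 of 51. Over all genes 14.5% were higher and 25.5% lower in WT, and 14.6% and 28.3% in KD. All 8 subunits of the cytosolic chaperonin, the ring that folds actin and tubulin, were at least 2-fold lower at 72 h in both genotypes, with a median log2 ratio of -1.96 in WT and -2.02 in KD, and 0 of 8 differed between genotypes. Hsc70Cb, the Hsp110 partner that exchanges nucleotide on Hsp70, went from 175 to 75.1 FPKM in WT and from 157 to 71.4 in KD. In the ER list 5 of 11 genes were at least 2-fold lower with age in WT and 4 of 11 in KD, beside the drop in Hsc70-3.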

How the data were processed

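RNA from pupal CNS was sequenced in 8 samples, 2 biological replicates in each of 4 groups, which were taken from the sample titles. Per the labels and methods the authors used CASAVA, aligned reads to dm3 with TopHat2 2.0.11, and with Cuffdiff 2.2.0 made the deposited FPKM tables, 1 per age, with a single pooled value for the 2 replicates of a group. With edgeR the authors also deposited an average log2 CPM per gene for each age. In the 72 h table that log2 CPM equals the 36 h one (median absolute difference 0.000853 over 10186 genes). Which samples it averages is therefore unclear, and it was not used for any comparison between groups. The columns of the authors' own comparisons (fold changes, test statistics, p-values and their adjusted forms) were neither used nor printed. The depth per sample is unknown from these values, no per-replicate column was used, so no SD, interval or test is given.

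Log2 ratios of FPKM were computed without a pseudocount over genes with a mean of at least 1 FPKM in the 2 groups compared and above 0 in both. Coordinates are those of dm3 in the tables, with the start counted from 1. Gene identifiers, strands, exon numbers and longest transcripts came from Ensembl release 115, which gave a length for 13635 of 13989 entries. All 10 members are named in the text, with the Hsp70 and small heat shock genes and Hsf, the other listed chaperone and stress genes past 2-fold in a knockdown comparison, and the neighbours within 20 kb of a member past 2-fold. Listed chaperone and stress genes within 2-fold (Hsp60, Hsromega, Hsc70Cb, stv, DnaJ-1), the paralogs Hsp60B and Hsp60D and single markers are named as examples chosen after their values were seen. The members and gene lists were chosen with earlier results of these data known. Alternatives were pseudocounts of 0.1 and 1 FPKM, no filter and a mean of at least 10 FPKM, 1.5-fold and 3-fold, and 3 other scalings. Centring on 20 bins of transcript length was added after the data had been seen. The computation was tested on simulated data and was run in Python 3.11.15 (NumPy 2.4.6, pandas 2.3.3, matplotlib 3.10.9).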

Additional observations from a re-analysis of the deposited data

Results flagged for a closer look

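Hsp68 had log2 ratios of KD to WT of opposite sign at the 2 ages, -1.39 at 36 h and 1.07 at 72 h, from pooled values of 27.5 and 10.5 FPKM and then 6.29 and 13.2 FPKM. It was picked out because both ratios passed 2-fold in opposite directions. The difference between the ages was not tested, since the values hold no spread between replicates.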

How the results depend on the processing

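No paired analysis was possible because each group has a single value pooled over its replicates, and for the same reason no replicate could be left out. The count of members past 2-fold at 36 h (2) became 1 at 3-fold, and that at 72 h (3) became 1 at 3-fold and 1 with a mean of at least 10 FPKM. Under every other pseudocount, filter, fold and scaling run, the counts stayed within 1.5 times the first ones in all 4 comparisons, at 2 to 3 members at 36 h, 2 to 4 at 72 h, 6 to 9 for WT age and 4 to 5 for KD age. Of 299 ratios of single members recomputed under an alternative, 4 lost the 2-fold size. These were Hsp68 at 72 h, at 0.96 with 1 FPKM added and 0.93 with a common upper quartile, and Hsc70-1 with age, at 0.66 in WT and 0.99 in KD with 1 FPKM added. Hsp26 at 72 h gained it, at 1.11 after centring on length, and 0 called ratios changed sign. A common upper quartile moved the all-gene median at 72 h to -0.15 and the members' median from 0.14 to 0.00, its sign turning. The KD age median of the members also turned, from -0.29 to 0.06 with a common median and 0.14 after centring on length. With a mean of at least 10 FPKM it was -1.47. The counts of motifs in promoters and the protein alignments planned at the outset were not run. Ratios of genes near 1 FPKM, such as Hsc70-1, and of Hsc70-2 in KD are limited by the low level, whose counting error is unknown.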
